A study of Homo sapiens with 7 samples.

Results

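The genes described here are metallothioneins and genes that handle zinc, followed in H4 cells under continuous blue light. They were chosen by symbol from a list of 7 genes: MT1E, MT1F, MT1X, MT2A, MTF1, SLC30A1 and SLC39A10. Of these, 5 were measured here (MT1X, MT2A, MTF1, SLC30A1 and SLC39A10), out of 18817 gene rows in the tables. MT1E and MT1F were not analysed here. SLC30A1 and SLC39A10 have no value at 480 min, because the table of that library is incomplete after the gene NME1-NME2.

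H4 is an established human neuroglioma line. The cells carried opto-PKR (Cry2Olig-PKR), a light-clustered form of the kinase PKR, whose phosphorylation of eIF2 starts the integrated stress response. All 7 libraries came from cells of this kind, grown on fibronectin-treated glass and lysed at once after 0, 60, 120, 240, 480, 600 or 720 min of blue light. The design text states that the aim was to follow transcripts over time. There was 1 library per time, so each time is a group of 1 sample. The labels do not say whether the wells came from separate cultures, so p-values measure only the spread between these libraries, which may be technical. Lit cells without opto-PKR and unlit cells at later times were not analysed here, so light, kinase clustering and time in the plate cannot be told apart.

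Metallothioneins are small proteins rich in cysteine that bind zinc, copper and cadmium, and their genes are known for a steep response to metal. MTF1 is the zinc-sensing transcription factor that drives them: zinc binding lets it attach to short metal response elements before its target genes. SLC30A1 (ZnT1) exports zinc across the plasma membrane and is a further MTF1 target. SLC39A10 (ZIP10) imports zinc, and MTF1 is known from zebrafish and mouse to repress it.

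The windows before the start sites of MT2A, MT1X and SLC30A1 are shown because the members differ in how many copies of the metal response motif they carry. The sequences are the 250 bases before the annotated start, from RefSeq on GRCh38.p14, read in the direction of the gene. Capitals mark each match to TGCACNC or TGCGCNC on either strand, and no matches overlap. The windows are chr16:56608334-56608583 on the plus strand for MT2A, chr16:56682220-56682469 on the plus strand for MT1X and chr1:211579162-211579411 on the minus strand for SLC30A1.
MT2A: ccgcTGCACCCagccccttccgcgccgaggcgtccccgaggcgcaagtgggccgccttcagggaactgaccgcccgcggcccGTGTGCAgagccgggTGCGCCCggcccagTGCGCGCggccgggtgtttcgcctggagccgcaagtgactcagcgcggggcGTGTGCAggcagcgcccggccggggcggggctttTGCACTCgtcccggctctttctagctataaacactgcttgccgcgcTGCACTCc
MT1X: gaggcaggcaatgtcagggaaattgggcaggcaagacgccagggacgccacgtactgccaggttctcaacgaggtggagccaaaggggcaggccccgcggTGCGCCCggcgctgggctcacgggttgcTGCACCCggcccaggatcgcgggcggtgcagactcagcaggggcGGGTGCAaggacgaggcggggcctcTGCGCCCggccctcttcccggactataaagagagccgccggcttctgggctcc
SLC30A1: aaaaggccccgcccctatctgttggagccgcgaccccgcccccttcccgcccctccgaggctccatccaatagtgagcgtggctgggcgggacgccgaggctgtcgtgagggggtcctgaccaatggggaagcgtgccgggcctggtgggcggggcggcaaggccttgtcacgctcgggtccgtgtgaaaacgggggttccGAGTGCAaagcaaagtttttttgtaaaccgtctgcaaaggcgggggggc

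The MT2A window held 7 matches, the MT1X window 4 and the SLC30A1 window 1. The windows of MTF1 and of both SLC39A10 start sites held 0. Of 35116 such windows over all genes, 24.8% held at least 1 match, 0.37% at least 4 and 0.0313% at least 7. A match is a description of these letters only, and the metal response element is used here as a feature of sequence, not as a site shown to be bound.

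Gene counts summed to between 7048253 and 8911818 transcripts in the 6 complete libraries, and to 5266123 in the incomplete one at 480 min. Levels are given as CPM, counts scaled for library size and composition. The 480 min library was scaled over the genes its table lists. It was then brought to whole-library size by the mean factor of the 6 complete libraries, so its CPM do not refer to 5266123 transcripts. The method counts 3' ends, 1 per molecule, so the levels were not divided by length. Intervals are 95% intervals of counting error alone. Of the listed glial and neural markers, CD44 (498 to 699 CPM), VIM (686 to 900.0 CPM) and SOX2 (15.9 to 55.4 CPM) were present in all libraries that list them. OLIG2 ranged over 5.02 to 20.4 CPM and SLC1A3 over 8.30 to 16.0 CPM. NES had 2 to 14 counts and AQP4 0 or 1, and GFAP and S100B were not analysed here. OLIG2 stood at least 2-fold above 0 min at 120, 240, 600 and 720 min (log2 ratios 1.12, 1.78, 1.98 and 1.81). SOX2 stood 2-fold below 0 min at 600 min (-1.16). Neither has a value at 480 min. Of the 5 glial and neural markers tested, 0 had a trend, 2 bent upward and 0 bent downward, beside 6.86%, 17.0% and 14.3% of all genes. OLIG2 bent by 1.29 ± 0.28 and SLC1A3 by 0.85 ± 0.28 (edgeR adjusted p = 0.00520 and 0.0347). The marker calls were not repeated with other settings or with libraries left out. The part of these markers in the results was not tested. Of the 5 markers of other cell types, PTPRC, PECAM1, CDH1, EPCAM and RBFOX3, none had more than 7 counts in any library.

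MT2A and MT1X, the storage proteins, were both highest at 720 min and next highest at 600 min. They differed in the size of that rise and at 60 min. In bulk RNA, a change in the share of cells that express a gene and a change in RNA per cell cannot be told apart. MT2A had 353 CPM at 0 min, then 258 (60 min), 324 (120 min), 312 (240 min), 312 (480 min), 379.9 (600 min) and 431 (720 min). The lowest level was that of the 60 min library and the highest that of the last. At 60 min MT2A stood at 0.732 of its level at 0 min (interval 0.691 to 0.776), and 9.44% of the 11200 genes compared had a lower ratio. At 720 min it stood at 1.22 times that level (1.16 to 1.29). The step from 480 to 600 min was 1.22-fold (1.16 to 1.28) and the next 1.13-fold (1.08 to 1.19). In the order of levels, the libraries at 120, 240 and 480 min did not differ beyond counting error from their neighbour in that group.

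The slope of MT2A on minutes, scaled to the whole course of 720 min in log2 units, was 0.40 ± 0.18 (SE, 7 libraries). It did not pass edgeR's quasi-likelihood test (adjusted p = 0.238). Its bend, which is how far the fitted curve at 360 min lies above the average of its ends in log2 units, was -0.30 ± 0.15 (edgeR adjusted p = 0.143). Single libraries moved both values: the trend was 0.24 without 720 min (adjusted p = 0.634), and the bend was -0.15 without 0 min (adjusted p = 0.604) and -0.35 without 60 min (adjusted p = 0.0464). MT2A is abundant enough for different molecules to carry the same UMI, the tag that marks a molecule. The authors' correction for this raised its UMI counts by a factor of 1.24 to 1.46. With that correction in the error, the interval at 60 min was 0.685 to 0.783 and at 720 min 1.15 to 1.30. As UMIs without the correction, the log2 ratio of 60 to 0 min was -0.26, against -0.45 with it and -0.51 with reads.

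MT1X rose late. It had 14.8 CPM at 0 min, then 14.9 (60 min), 12.5 (120 min), 13.2 (240 min), 15.2 (480 min), 28.1 (600 min) and 41.5 (720 min). The first 5 libraries did not differ from their neighbours in level beyond counting error, and the last 2 stood above all of them. At 600 min MT1X was 1.89 times its level at 0 min (interval 1.52 to 2.36), and at 720 min 2.79 times (2.27 to 3.46). The step from 480 to 600 min was 1.85-fold (1.50 to 2.27) and the next 1.48-fold (1.25 to 1.75).

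The fitted trend of MT1X was 1.43 ± 0.33 (SE, 7 libraries, edgeR adjusted p = 0.0348), where 3.92% of all 13566 genes tested rose. Its bend was -0.91 ± 0.21 (edgeR adjusted p = 0.00767), meaning that the middle of the course lay below a straight line between the ends, where 14.3% of all genes bent downward. The bend kept its call in 15 of 15 distinct alternatives (adjusted p from 0.00374 to 0.0352). The trend kept it in 9. The log and rank time scales ended the call, as did leaving out any of 4 libraries. The trend was 1.52 without 60 min (adjusted p = 0.0930) and 1.37 without 120 min (adjusted p = 0.0957). It was 1.42 without 600 min (adjusted p = 0.137) and 0.96 without 720 min (adjusted p = 0.211).

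**Figure D1:**
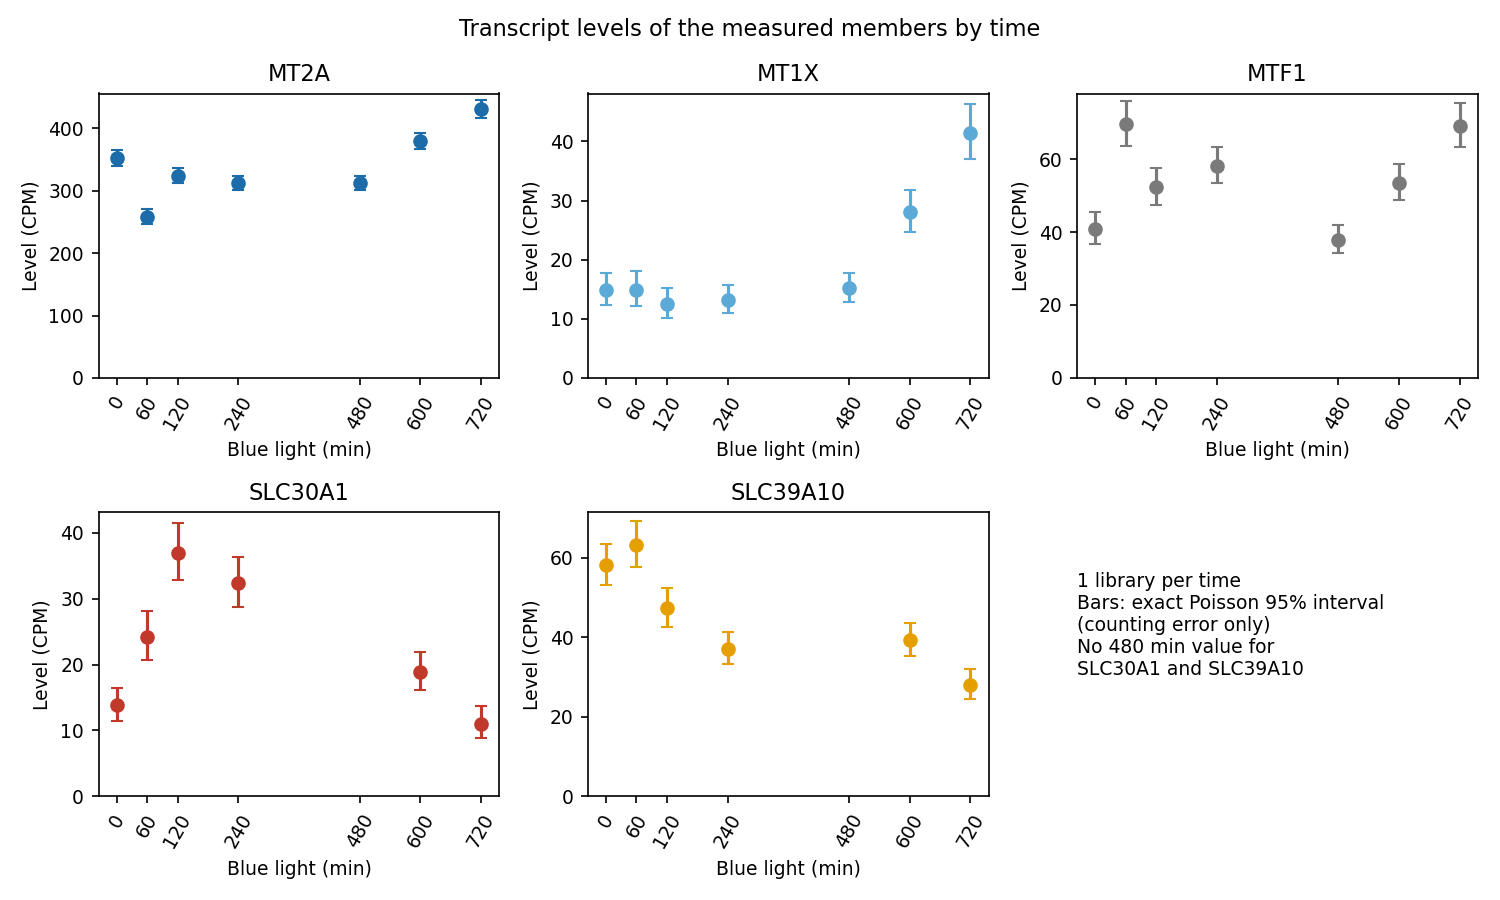
Level in CPM (vertical axis) against minutes of blue light (horizontal axis) for the 5 measured genes, 1 library per time. Bars are exact Poisson 95% intervals of counting error. SLC30A1 is highest at 120 min (36.9 CPM), MT1X at 720 min (41.5 CPM) and SLC39A10 lowest at 720 min (28.0 CPM).

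Copies of the metallothionein genes are alike in sequence, which limits how far their counts can be told apart. Of the 50-base words in the last 300 bases of the MT2A transcript in GENCODE 29, 14.3% also occurred in transcripts of other genes, among them MT1X and MT1G. For MT1X the share was 13.9%, all in 1 other gene. For MTF1, SLC30A1 and SLC39A10 it was 0. MT1X had UMI counts that were not whole in 5 of 7 libraries and MT2A in 2 of 7. MTF1 had such counts in 5 of 7, and SLC30A1 and SLC39A10 in 0 of 6. The treatment of reads matching more than 1 gene is unknown here. The levels of both metallothioneins carry that uncertainty, as do those of MTF1, although its end shared no words. Of 11 other metallothionein genes looked for, MT1G had 0 to 4 counts per library and MT1IP 1 to 6, too few to test; the other 9 were not analysed here.

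MTF1, the zinc sensor, had no called course, and its highest libraries, at 60 and 720 min, were not next to each other. It had 40.9 CPM at 0 min, then 69.5 (60 min), 52.3 (120 min), 58.2 (240 min), 37.9 (480 min), 53.5 (600 min) and 69.2 (720 min). Its highest levels, at 60 and 720 min, did not differ beyond counting error, nor did its lowest, at 0 and 480 min. At 60 min it stood at 1.70 times its level at 0 min (interval 1.48 to 1.95), above 95.5% of the genes compared, and at 720 min at 1.69 times (1.48 to 1.94). It was also above 0 min at 120 min (1.28, 1.10 to 1.48), 240 min (1.42, 1.24 to 1.63) and 600 min (1.31, 1.14 to 1.51). At 480 min the ratio was 0.927 (0.800 to 1.07). Neither its trend (0.14 ± 0.31, edgeR adjusted p = 0.845) nor its bend (-0.28 ± 0.32, edgeR adjusted p = 0.525) passed the test. Both changed sign when 1 library was left out: the trend was -0.07 without 0 min and -0.23 without 720 min, and the bend 0.04 without 480 min and 0.14 without 720 min.

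SLC30A1, the zinc exporter, had the highest ratio to 0 min of the 5 genes at 120 and 240 min, while at 60 min it and MTF1 were within counting error of each other. It had 13.8 CPM at 0 min, then 24.2 (60 min), 36.9 (120 min), 32.4 (240 min), 18.8 (600 min) and 11 (720 min). The libraries at 120 and 240 min were highest and did not differ beyond counting error, and those at 0 and 720 min were lowest and did not differ either. Against 0 min it stood at 1.75-fold after 60 min (interval 1.38 to 2.24). It stood at 2.68-fold after 120 min (2.15 to 3.35) and at 2.35-fold after 240 min (1.89 to 2.94). At 720 min the ratio was 0.800 (0.597 to 1.07).

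SLC30A1 bent upward by 1.57 ± 0.31 (SE, 6 libraries, edgeR adjusted p = 0.00374), where 17.0% of all genes did so. The call held in all 14 distinct alternatives that could alter its values, with bends from 1.07 to 2.00 and adjusted p from 0.000162 to 0.0405. Its trend was -0.89 ± 0.60 and did not pass (edgeR adjusted p = 0.419). That trend rested on the ends of the course: it was -1.45 without 0 min (adjusted p = 0.0502) and -0.17 without 720 min (adjusted p = 0.938). Among the tested glial and neural markers, OLIG2 and SLC1A3 bent in the same direction as SLC30A1, with the values above. SOX2, VIM and CD44 had no called bend (0.09, 0.00 and 0.02). A link between these markers and SLC30A1 was not tested. The ratio at 120 min exceeded that of 97.9% of the 11347 genes compared there.

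SLC39A10, the zinc importer, was lower than at 0 min, beyond counting error, in every library from 120 min on. It had 58.3 CPM at 0 min, then 63.2 (60 min), 47.3 (120 min), 37.2 (240 min), 39.3 (600 min) and 28.0 (720 min). The first pair of libraries did not differ beyond counting error, nor did those at 240 and 600 min, and that at 720 min lay below all others. At 720 min it stood at 0.481 of its level at 0 min (interval 0.408 to 0.566), and 3.84% of the 11344 genes compared had a lower ratio. Its trend of -0.92 ± 0.26 (SE, 6 libraries) missed the threshold in edgeR (adjusted p = 0.0755). It passed in 2 of 14 distinct alternatives: with DESeq2 (-0.92, adjusted p = 0.0196) and without the 240 min library (-0.94, edgeR adjusted p = 0.0467). Those settings called a trend for 11.7% and 8.58% of all genes, against 6.86% in the main fit. The other alternatives did not pass, among them those without 60 min (-0.80, edgeR adjusted p = 0.228) and without 720 min (-0.76, edgeR adjusted p = 0.328). Its bend was -0.21 ± 0.26 (edgeR adjusted p = 0.557).

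**Figure D2:**
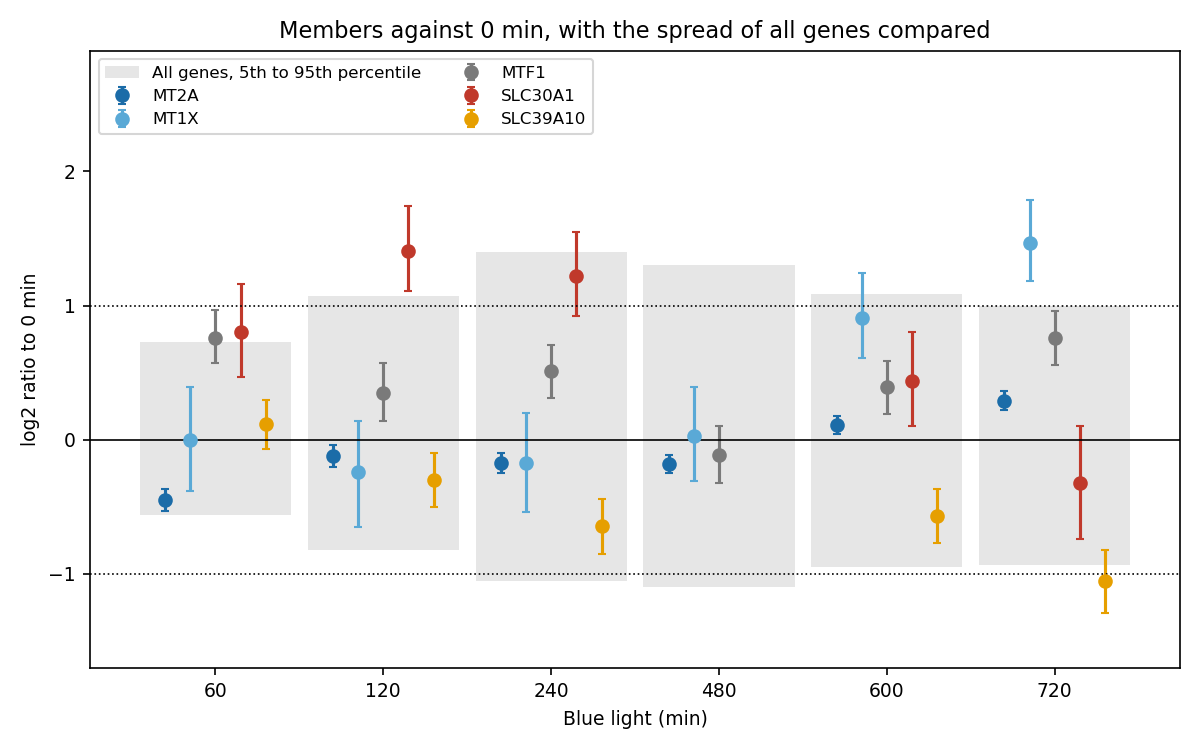
The log2 ratio to 0 min (vertical axis) at each later time (horizontal axis, minutes of blue light) for the 5 genes, with 95% intervals of counting error, over grey boxes from the 5th to the 95th percentile of all genes compared. Dotted lines mark a 2-fold difference. SLC30A1 (0.80) and MTF1 (0.76) lie just above the box at 60 min, SLC30A1 above it at 120 min (1.41), MT1X above it at 720 min (1.47) and SLC39A10 below it at 720 min (-1.05).

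Counts over the 5 genes are given beside those over all genes. Of the 5, 1 had a trend, where 6.86% of all genes did: 1 rose, beside 3.92%, and 0 fell, beside 2.93%. A bend was called for 2, where 31.3% of all genes had one: 1 upward, beside 17.0%, and 1 downward, beside 14.3%. The median trend was 0.14 over the members and -0.02 over all genes, and the median bend -0.28 and 0.01. At 60 min 0 of 5 were at least 2-fold from 0 min, where 2.45% of all genes compared were (2.07% higher, 0.375% lower). At 120 min 1 of 5 was, SLC30A1, beside 8.48% of all genes (5.89% higher, 2.59% lower), and at 240 min it was again the only one of 5, beside 16.3% (10.5% higher, 5.82% lower). At 480 min 0 of the 3 with a value were, beside 15.6% (9.09% higher, 6.51% lower), and at 600 min 0 of 5, beside 10.5% (6.16% higher, 4.35% lower). At 720 min MT1X was 2-fold higher and SLC39A10 2-fold lower, beside 9.20% of all genes (5.00% higher, 4.20% lower). These are ratios of single libraries with no replicate check.

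Ratios of a pair of genes within a library do not depend on how libraries are scaled to each other. For each 100 transcripts of the importer SLC39A10 there were 23.6 of the exporter SLC30A1 in the 0 min library, then 38.2 (60 min), 78.0 (120 min), 87.0 (240 min), 48.0 (600 min) and 39.3 (720 min). The interval was 74.2 to 102 at 240 min, against 19.2 to 29.0 at 0 min, and these intervals do not overlap. At 720 min it was 30.1 to 50.9, still above that at 0 min, although SLC30A1 itself was then within counting error of its level at 0 min. For each 100 transcripts of MT2A there were 4.21 of MT1X in the 0 min library, then 5.76 (60 min), 3.85 (120 min), 4.22 (240 min), 4.88 (480 min), 7.39 (600 min) and 9.62 (720 min). The interval at 720 min (8.54 to 10.8) lay above that at 0 min (3.50 to 5.03), so the 2 metallothioneins differed unequally from their levels at 0 min.

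**Figure D3:**
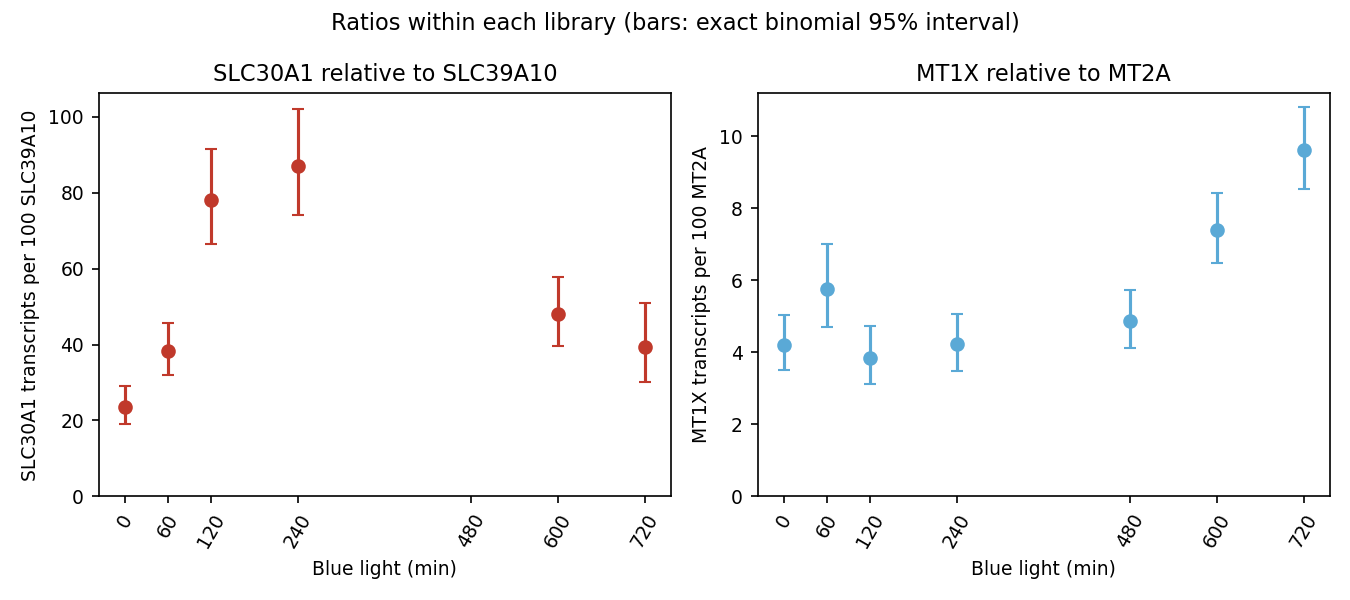
Transcripts of SLC30A1 per 100 of SLC39A10 (left) and of MT1X per 100 of MT2A (right) in each library, against minutes of blue light. Bars are exact binomial 95% intervals. The left ratio is highest at 240 min (87.0) and the right one at 720 min (9.62).

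The members' courses were also compared with each other and with all genes, as a description over 6 or 7 libraries that share time in the plate. Between log2 levels of MT1X and MT2A Pearson's r was 0.79 over 7 libraries, and MTF1 had r = 0.41 with MT1X and 0.01 with MT2A. Over 6 libraries MTF1 had r = 0.02 with SLC30A1 and -0.37 with SLC39A10. SLC30A1 had r = -0.75 with MT1X, -0.67 with MT2A and 0.28 with SLC39A10. SLC39A10 had r = -0.71 with MT1X and -0.74 with MT2A. Among 8114 genes at 20 CPM or more on average, those most like SLC30A1 were AP3M1 (r = 0.997), KBTBD2, ZNF304, ZBTB2 and NUP153. For SLC39A10 they were ANTXR1 (r = 0.993), GPNMB, INTS8, TMEM60 and GBAS. For MTF1, among 4424 genes with 7 libraries, they included AKAP13 (r = 0.966), DHX34, BRD2 and ATXN7L3B, and for MT2A they were C9orf89 (r = 0.966), MRPS18B, KLHDC4, NHP2L1 and KRTCAP2. For MT1X, added after its values were seen, they were GCC1 (r = 0.986), MRPL2, FAM127B, COPZ1 and HLA-B. So few points give high values of r for many genes, and no p is given.

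Other zinc transporters were taken from lists by family. Of 13 further importers of the SLC39 (ZIP) family 12 had a row and 10 were tested. Of the 10, 0 had a trend, 0 bent upward and 2 bent downward, beside 6.86%, 17.0% and 14.3% of all genes. SLC39A7 (ZIP7), which releases zinc from the endoplasmic reticulum and Golgi, had 25.4 CPM at 0 min, then 22.2 (60 min), 8.84 (120 min), 13.2 (240 min), 13.8 (600 min) and 23.5 (720 min). It was lowest at 120 min, at 0.349 of its level at 0 min (interval 0.262 to 0.460), and both ends stood high. Its bend was -1.31 ± 0.36 (SE, edgeR adjusted p = 0.0182), a call lost when the 0 min library (-1.26, adjusted p = 0.0805) or the 720 min library (-1.28, adjusted p = 0.105) was left out.

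SLC39A3 (ZIP3), an importer of the plasma membrane, bent by -0.76 ± 0.22 (edgeR adjusted p = 0.0211), with 28.0 CPM at 0 min, then 17.7 (240 min) and 29.2 (720 min). The bend was as large without 0 min (-0.74), 240 min (-0.76) or 720 min (-0.78), but the call was lost each time (adjusted p = 0.109, 0.163 and 0.0595). On the log time scale the bend was -0.51 (adjusted p = 0.0562). SLC39A14 (ZIP14), which also carries iron and manganese, passed neither test (trend 0.79 ± 0.25, edgeR adjusted p = 0.108). It stood at 1.98 times its level at 0 min at 600 min (interval 1.82 to 2.15) and 1.42 times at 720 min (1.30 to 1.56).

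Of 9 further exporters of the SLC30 (ZnT) family 7 had a row and 6 were tested. Of the 6, 0 had a trend, 1 bent upward and 0 bent downward, beside 6.86%, 17.0% and 14.3% of all genes. SLC30A7 (ZnT7), which carries zinc into the Golgi, bent upward by 0.53 ± 0.18 (edgeR adjusted p = 0.0370), with 59.7 CPM at 0 min, then 79.3 (240 min) and 54.6 (720 min). The call was lost when the library at 0, 60, 120, 240 or 720 min was left out, with bends of 0.47 to 0.59 and adjusted p of 0.0544 to 0.204, and on the log time scale (0.40, adjusted p = 0.0570). Both other genes reported as MTF1-dependent, GCLC of glutathione synthesis and C11orf31 (SELENOH), were tested and neither passed (trends 0.86 ± 0.27 and 0.55 ± 0.18, edgeR adjusted p = 0.0994 and 0.105).

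Metallothioneins also bind copper, and all 11 listed copper genes were tested: 1 rose, 0 fell, 2 bent upward and 1 bent downward, beside 3.92%, 2.93%, 17.0% and 14.3% of all genes. SLC31A1 (CTR1), the main copper importer, had 106 CPM at 0 min, then 90.3 (60 min), 80.2 (120 min), 103 (240 min), 200.3 (600 min) and 182 (720 min). The last pair of libraries stood above all the earlier ones. It rose by 1.18 ± 0.24 (SE, 6 libraries, edgeR adjusted p = 0.0257). The call was lost when 60, 120, 600 or 720 min was left out, with trends of 0.99 to 1.34 and adjusted p of 0.0652 to 0.158, and on the log and rank time scales (adjusted p = 0.109 and 0.0780).

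ATP7A, a copper-exporting ATPase, bent upward by 0.77 ± 0.18 (edgeR adjusted p = 0.00815), with 29.3 CPM at 0 min, then 46.0 (240 min) and 21.9 (720 min). SCO1, a copper chaperone of cytochrome c oxidase, bent upward by 0.69 ± 0.18 (edgeR adjusted p = 0.0141), with 79.2 CPM at 0 min, then 141 (240 min) and 100.5 (720 min). ATOX1, which hands copper to ATP7A, bent downward by -0.67 ± 0.20 (edgeR adjusted p = 0.0270), with 54.6 CPM at 0 min, then 31.8 (60 min) and 60.2 (720 min). The call of ATP7A was lost with the 240 min library left out (0.65, adjusted p = 0.0765), with the 720 min one left out (0.71, adjusted p = 0.0576) and on the log time scale (0.56, adjusted p = 0.0744). That of SCO1 was lost with 0 min left out (0.47, adjusted p = 0.178) and with 240 min left out (0.61, adjusted p = 0.190). The ATOX1 bend was -0.39 with 0 min left out (adjusted p = 0.251). It was about as large as with all libraries when 240, 480 or 720 min was left out (-0.76, -0.64 and -0.76), yet the call was lost (adjusted p = 0.0692, 0.0613 and 0.0783). SLC31A2, a relative of the copper importer, was 2-fold lower at 720 min, at 0.443 of its level at 0 min (interval 0.261 to 0.729), and had no call (trend -0.99 ± 0.32, edgeR adjusted p = 0.110).

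**Figure D4:**
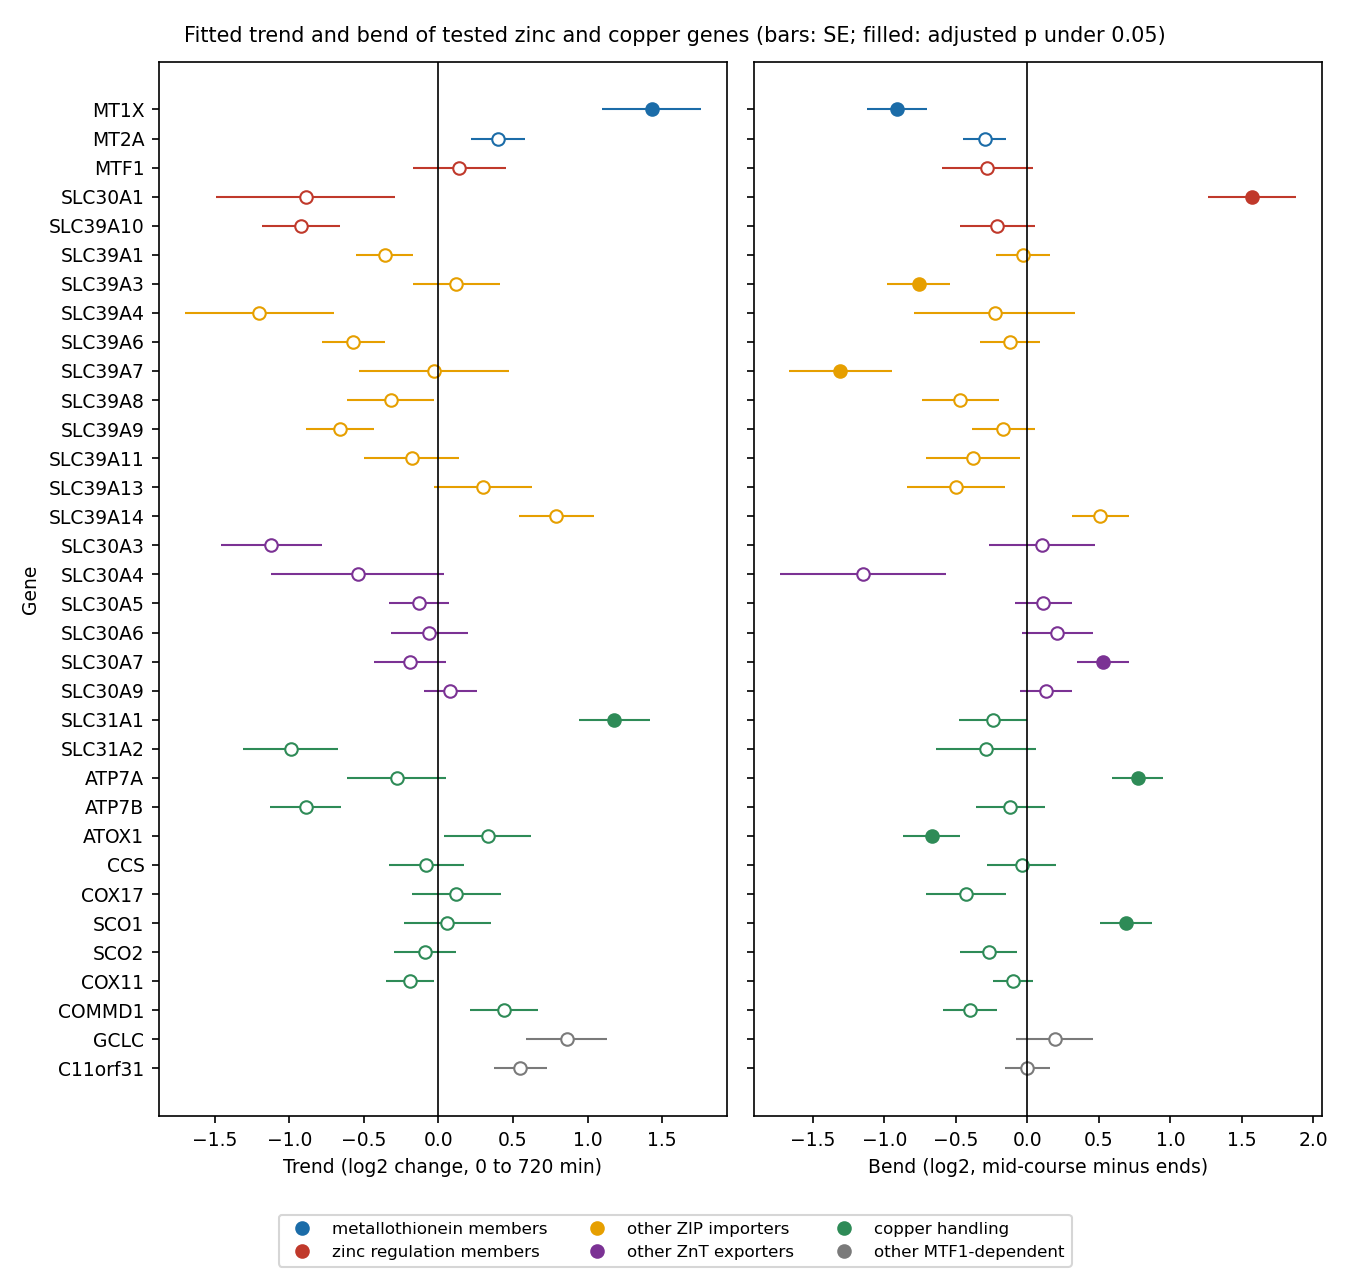
Fitted trend (left) and bend (right), in log2 units on the horizontal axes, for each tested zinc and copper gene, by row and coloured by list. Bars are SE and filled circles have an adjusted p under 0.05. MT1X (1.43) and SLC31A1 (1.18) are the filled trends, and SLC30A1 (1.57) has the highest bend shown.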

How the data were processed

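RNA of 7 libraries, 1 per time, was counted by a CEL-Seq2 adaptation. Per the submitters' processing notes reads were aligned with BWA to hg19. The versions, the annotation and the counting program were not stated. The authors deposited expected counts per gene as reads, UMIs and transcripts, the last being UMIs corrected for collisions among 4096 UMIs. Barcode column 4, the primer named in the labels, was used; 95 other columns were not. ERCC spike-ins (at most 0.0124% of reads) were left out.

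Transcript counts were rounded. Genes with 10 or more counts in 3 or more libraries entered a robust quasi-likelihood fit and F test (edgeR 4.0.16, R 4.3.3, TMM, Benjamini-Hochberg over 13566 genes, threshold 0.05). Genes within the range of the 480 min table had 7 libraries (5 residual degrees of freedom for the trend, 4 for the bend) and later genes 6; all p-values were adjusted together. The SE given with a trend or bend is its size divided by the square root of the F statistic. The residual spread includes departure from the fitted shape, and may be technical. Genes absent from a table within its range were taken as 0. Ratios to 0 min had no test: log2 values carry a prior count of 2, and folds have exact binomial 95% intervals (scipy 1.17.1). Genes with 50 or more counts in either library were compared at 2-fold. The fitting code was tested on simulated data with changes larger than the main fits of the members gave. That test does not show how well changes of the members' size are found.

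Alternatives were UMI and read counts, RLE factors, DESeq2 1.42.0, 2 other count filters, log and rank time, the 6 complete libraries, and each library left out. Members and lists were chosen with earlier results of these data known. Named genes were all members, list genes with a call or a 2-fold difference, and the 5 genes most like each member in log2(CPM + 1), of which 1 is not reported here. SLC39A14, GCLC and C11orf31 were named after their values were seen.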

Additional observations from a re-analysis of the deposited data

How the results depend on the processing

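The number of members with a bend was 2, and was 2 in 14 of 15 distinct alternatives and 3 without 60 min, where MT2A also passed (-0.35, adjusted p = 0.0464). The number with a trend was 1; it was 2 with DESeq2, 0 on the log time scale, 0 on the rank time scale, and 0 to 2 when a library was left out. MT1X lost its trend on those scales (1.26 and 1.45, adjusted p = 0.142 and 0.0709). Signs turned only for uncalled values. The MTF1 trend ranged from -0.23 to 0.39 over libraries left out (-0.07 without 0 min, -0.23 without 720 min). The MTF1 bend was 0.17 on the log time scale, 0.04 with the 6 complete libraries and -0.77 to 0.14 over libraries left out. The SLC39A10 bend was 0.10 on the log time scale and -0.64 to 0.17 over libraries left out (0.17 without 240 min). The cause was not tested. Counts of members 2-fold from 0 min did not change in 5 alternatives at any time, and of 140 member ratios 3 left their counting interval, all of MT2A: -0.26 at 60 min with UMIs, and 0.22 at 600 min and 0.38 at 720 min with reads. Over all genes, calls of a trend ranged from 1.08% without 600 min to 11.7% with DESeq2, and of a bend from 9.55% without 240 min to 34.9% with the filter at 50 counts. The alternatives for genes other than the members were added after seeing the data. SLC30A1 and SLC39A10 lack the 480 min library, so dropping it removes none of their values. For every gene the 6 complete libraries and the omission of 480 min are the same fit, counted once. No paired analysis was possible because each time has 1 library and the labels carry no replicate numbers. Depth limits MT1X and SLC30A1 most, with 96 to 312 and 83 to 295 counts.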
